A study of Mus musculus with 12 samples.

Results

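Transcripts of 10 genes that carry iron into cells, store it, export it, build or break down haem, or sense iron were followed in mouse heart muscle after coronary ligation and after local delivery of NECA. The genes were taken by symbol (Tfrc, Slc11a2, Fth1, Ftl1, Slc40a1, Alas1, Fech, Hmox1, Ireb2 and Aco1), and all 10 had a row among the 56647 genes with a value in every library. They were chosen by measured values of these same libraries, since the group was proposed after fold changes between the 3 groups of mice were known. Which of the values were used is not recorded, so all fold changes and adjusted p-values describe these mice and are not independent evidence.

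All mice were labelled wild type and all tissue as myocardial. The 3 sham vehicle mice were given vehicle per the labels and are headed as sham in the data table. The 3 MI mice had a ligated left coronary artery, a model of myocardial infarction (MI), and the 4 NECA-treated MI mice received NECA by local delivery to the infarct. NECA, 5′-(N-ethylcarboxamido)adenosine, is an agonist of adenosine receptors. No vehicle or delivery is named for the MI mice, so NECA and its delivery cannot be told apart, nor can ligation and the absence of vehicle. The strain, sex and age of the mice, the part of the heart taken and the time after ligation were not given in the sources used here.

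RNA was read from transcript 3′ ends, and 1 library of each mouse entered the comparisons, with 0.96 to 1.33 M counts (M is 1e6). MI mice 2 and 3 each also had a 1st library of 30.7 and 27.1 M counts, which was left out of the main values because only MI mice had such libraries and their gene rows differ from those of the other libraries (306 rows only there, 101 missing there). Whether that difference moved their CPM values or those of summed libraries was not tested. Levels are given as CPM, counts per 1e6 counts of a library. Heart muscle transcripts were present in every library. In sham vehicle mice 1 to 3, 9 cardiomyocyte markers summed to 72584, 72379 and 62678 CPM. The sums were 64141, 62806 and 47266 CPM in MI mice 1 to 3, and between 64565 and 70223 CPM in the NECA-treated MI mice. Some mice stood apart. Sham vehicle mouse 3 held 1346 CPM of the atrial light chain Myl4 against at most 8.26 CPM elsewhere, and 805 CPM of adipocyte markers. MI mouse 3 held 11197 CPM of fibroblast markers against 551 to 4549 CPM in the other mice, and NECA-treated MI mouse 4 held 353 CPM of skeletal muscle markers against at most 62.8 CPM. For some members, values without these mice are given where leaving them out changed a call, a direction or the size of a difference.

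Cells take up iron mostly as transferrin, which binds the transferrin receptor encoded by Tfrc and is internalised, and the iron then leaves the endosome through the transporter encoded by Slc11a2. Iron not in use is kept in ferritin shells of heavy (Fth1) and light (Ftl1) chains, and ferroportin (Slc40a1) is the iron exporter of mammalian cells. Iron regulatory proteins, encoded by Ireb2 and Aco1, bind hairpins called iron-responsive elements when iron is low, which stabilises Tfrc mRNA through its 3′ untranslated region (UTR) and blocks translation of ferritin and ferroportin mRNA through the 5′ UTR. Heart muscle uses much of its iron in mitochondria, for iron-sulfur clusters and for haem, which is built from the step of Alas1 to that of Fech and broken down by Hmox1.

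The hairpins are shown because they separate the members whose mRNA level this system sets from those whose translation it sets. Transcripts of GENCODE M21 (build GRCm38, which is not the GRCm39 build of the expression values) were searched for a C, 5 bases, the loop letters CAGTG, 1 base, and 5 bases that pair with the 5 before the loop, with G-T pairs allowed. Of 21842 coding genes, 159 (0.728%) held a match in a UTR of a coding transcript, and 4 of the 10 members did. Tfrc held 4 matches in its 3′ UTR and was the only coding gene (1 of 21842) with more than 1 there. The sequences are given 5′ to 3′ as DNA with the loop letters in capitals and 12 bases before them.
Tfrc site 1: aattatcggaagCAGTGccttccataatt
Tfrc site 2: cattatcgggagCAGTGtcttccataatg
Tfrc site 3: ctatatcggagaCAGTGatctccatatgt
Tfrc site 4: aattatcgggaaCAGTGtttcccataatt
Fth1: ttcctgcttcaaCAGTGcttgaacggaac
Ftl1: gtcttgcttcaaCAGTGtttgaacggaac
Slc40a1: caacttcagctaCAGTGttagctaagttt
The Tfrc sites lie on the plus strand at chr16:32631219-32631247, chr16:32631598-32631626, chr16:32631663-32631691 and chr16:32631710-32631738 of GRCm38. The 5′ UTR sites lie at chr19:9982732-9982760 for Fth1 (plus strand), chr7:45459779-45459807 for Ftl1 (minus strand) and chr1:45925465-45925493 for Slc40a1 (minus strand). Slc11a2, which is known to have a form with such an element in its 3′ UTR, gave no match, which says only that these letters and pairs were not found. Of other iron and haem genes, Alas2 held a match in the 5′ UTR and Bola3 in the 3′ UTR.

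Of the iron uptake genes, Tfrc was lower after infarction and Slc11a2 did not pass the test. Tfrc (ENSMUSG00000022797) was 191, 154 and 103 CPM in sham vehicle mice 1, 2 and 3, 40.0, 28.8 and 21.9 CPM in MI mice 1, 2 and 3, and 54.9, 43.1, 31.7 and 50.9 CPM in NECA-treated MI mice 1 to 4. Every infarcted mouse lay below every sham vehicle mouse, while the MI and NECA-treated MI groups overlapped. The means were 149 ± 44.3 CPM (SD, n = 3) in sham vehicle mice, 30.2 ± 9.13 CPM (SD, n = 3) in MI mice and 45.1 ± 10.2 CPM (SD, n = 4) in NECA-treated MI mice, so the order of levels was sham vehicle, NECA-treated MI and MI. The ranges of the last 2 overlapped in part, from 31.7 to 40.0 CPM, while each mean lay outside the range of the other group. In edgeR's quasi-likelihood test over 9505 genes, Tfrc fell by 2.39 ± 0.34 on the log2 scale (SE) in MI against sham vehicle mice, with an adjusted p of 0.036. The 1st libraries of MI mice 2 and 3 gave 41.9 and 21.5 CPM, also below every sham vehicle mouse.

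**Figure D1:**
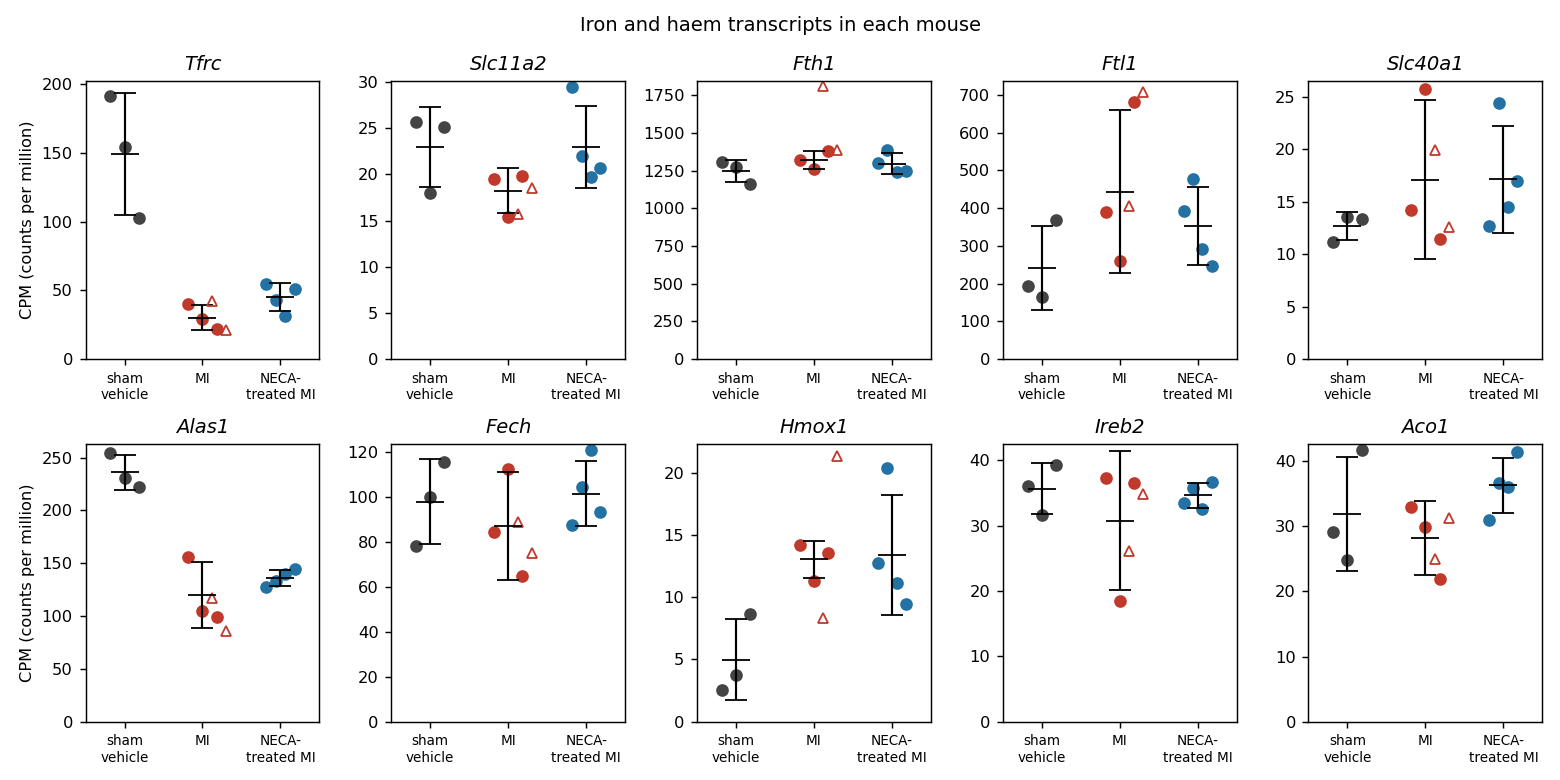
CPM of each member in each mouse (filled points, mice ordered by number from left to right) with the mean and SD of the group (bars); open triangles are the deep 1st libraries of MI mice 2 and 3, which are not in the means. Among the filled points Tfrc and Alas1 lay lower and Hmox1 higher in the 7 infarcted mice than in the 3 sham vehicle mice, but the open triangle of MI mouse 2 for Hmox1 (8.36 CPM) lay below sham vehicle mouse 3 (8.64 CPM).

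Against sham vehicle mice, NECA-treated MI mice had a Tfrc log2 fold change of -1.81 ± 0.29 (SE), with an adjusted p of 0.147 in edgeR's test, so this difference did not pass the threshold although the groups did not overlap. Without sham vehicle mouse 3, whose Tfrc was the lowest of its group, it was -2.08 (edgeR adjusted p = 4.86e-05). Between NECA-treated MI and MI mice the Tfrc log2 fold change was 0.58 ± 0.35 (SE, edgeR adjusted p = 0.835), with a 95% interval of -0.18 to 1.34. That interval holds both no difference and a rise of more than 2-fold, so the 2 infarcted groups are not shown to be alike.

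In bulk tissue, fewer cells of a type and less RNA per cell cannot be told apart. The cardiomyocyte marker sums above were lowest in MI mouse 3. On the scale of Tfrc counts per 1000 counts of these markers the sham vehicle mice had 2.63, 2.13 and 1.64, the MI mice 0.623, 0.459 and 0.463, and the NECA-treated MI mice 0.817, 0.668, 0.460 and 0.724. The infarcted mice lay below the sham vehicle mice on this scale as well. Of the 9 markers, 4 were themselves lower without overlap in MI against sham vehicle mice, as were 5.75% of all genes. The scale therefore moves with the markers and is not a fixed measure of heart muscle cells. Tfrc is also abundant in red cell precursors. Of 12 erythroid markers, 11 had a row and summed to 1159, 1712 and 3780.0 CPM in sham vehicle mice, 776, 2651 and 1263 CPM in MI mice and 871 to 982 CPM in NECA-treated MI mice. Sham vehicle mouse 3 held the most erythroid transcript and the least Tfrc of its group, and MI mouse 2 held more erythroid transcript than sham vehicle mice 1 and 2 but 28.8 CPM of Tfrc. The red cell membrane marker Slc4a1 was too low to be tested, with group means of at most 1.82 CPM. The part of red cells in the Tfrc difference was not tested.

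Slc11a2, which moves ferrous iron out of the endosome, was 25.7, 18.04 and 25.1 CPM in sham vehicle mice, 19.5, 15.4 and 19.8 CPM in MI mice and 29.4, 21.96, 19.7 and 20.7 CPM in NECA-treated MI mice. All 3 groups overlapped. Its log2 fold changes were -0.40 ± 0.26 in MI against sham vehicle, 0.35 ± 0.25 in NECA-treated MI against MI and -0.05 ± 0.23 in NECA-treated MI against sham vehicle mice (SE, smallest edgeR adjusted p = 0.555). These counts per gene do not separate its transcript forms.

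Among 13 other uptake genes, 8 were tested and 0 passed in any of the 3 comparisons. The metalloreductase gene Steap4 had the smallest p of these in MI against sham vehicle mice, with means of 47.8 ± 9.12 CPM for MI and 29.98 ± 21.3 CPM for sham vehicle mice (SD, n = 3 each, log2 fold change 0.62 ± 0.39, SE), and had -0.31 ± 0.35 and 0.31 ± 0.37 in the other comparisons. Cd163, the scavenger receptor of macrophages for haemoglobin, came next with -0.37 ± 0.33. In NECA-treated MI against MI mice the zinc and iron transporter gene Slc39a14 had -0.26 ± 0.18 and against sham vehicle mice Slc39a8, of the same family, had -0.90 ± 0.92.

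Ferritin light chain and heavy chain differed in their values. Fth1 (ENSMUSG00000024661), whose chain oxidises iron on entry, was 1305, 1271 and 1163 CPM in sham vehicle mice, 1324, 1259.6 and 1379 CPM in MI mice and 1302, 1389.9, 1242 and 1248 CPM in NECA-treated MI mice. The groups overlapped and the log2 fold changes were -0.01 ± 0.17, -0.01 ± 0.16 and -0.02 ± 0.16 (SE) in MI against sham vehicle, NECA-treated MI against MI and NECA-treated MI against sham vehicle mice, with 95% intervals that reached from -0.36 to 0.35 at the widest. The deep 1st library of MI mouse 2 read 1812 CPM, 1.44 times its 2nd library, and with the libraries of a mouse summed the MI against sham vehicle value was 0.19 (edgeR adjusted p = 0.744).

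Ftl1 (ENSMUSG00000050708) was 193, 164 and 368 CPM in sham vehicle mice, 389, 259 and 682 CPM in MI mice and 391, 477, 292 and 247 CPM in NECA-treated MI mice. Sham vehicle mouse 3 lay within the range of both infarcted groups, and MI mouse 3 was the highest of all. The log2 fold change was 0.79 ± 0.33 (SE, unadjusted p = 0.0378, edgeR adjusted p = 0.395) in MI against sham vehicle, 0.51 ± 0.31 (edgeR adjusted p = 0.866) in NECA-treated MI against sham vehicle and -0.29 ± 0.31 (edgeR adjusted p = 0.912) in NECA-treated MI against MI mice. With no count filter the MI against sham vehicle value passed (0.79, edgeR adjusted p = 0.0109), and without MI mouse 3 it was 0.44 (edgeR adjusted p = 0.851). The same value was larger without sham vehicle mouse 3 (1.10, edgeR adjusted p = 0.158) and without MI mouse 2 (1.03, edgeR adjusted p = 0.179). With sham vehicle mouse 3, MI mouse 3 and NECA-treated MI mouse 4 left out together, the value of NECA-treated MI against MI mice was 0.19 (edgeR adjusted p = 0.963) and that of NECA-treated MI against sham vehicle mice was 0.95 (edgeR adjusted p = 0.0462). Ftl1 has a near-identical copy, Ftl1-ps1, to which 0 to 17 counts per library were assigned in the libraries compared, against 218 to 655 for Ftl1. Reads shared by such copies were divided during quantification, so the Ftl1 level is uncertain by that share.

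The summed level of 16 macrophage and monocyte markers ran beside Ftl1. It was 307, 259 and 624 CPM in sham vehicle mice, 671, 435 and 1422 CPM in MI mice and 704, 990, 701 and 590 CPM in NECA-treated MI mice. Sham vehicle mouse 3, MI mouse 3 and NECA-treated MI mouse 2 were the highest of their groups in both Ftl1 and these markers. The same mice were also the highest of their groups in 8 fibroblast markers, at 1707, 11197 and 4549 CPM. The median log2 fold change of the fibroblast markers in MI against sham vehicle mice was 2.20. Of 15 macrophage and monocyte markers tested, 9 had an unadjusted p under 0.05 as higher in MI against sham vehicle mice, and 0 passed after adjustment. Of all genes, 12% had such a p in either direction. Among the 15 markers, 14 had a positive log2 fold change (median 1.17). The part of either cell type in the Ftl1 values was not tested.

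**Figure D2:**
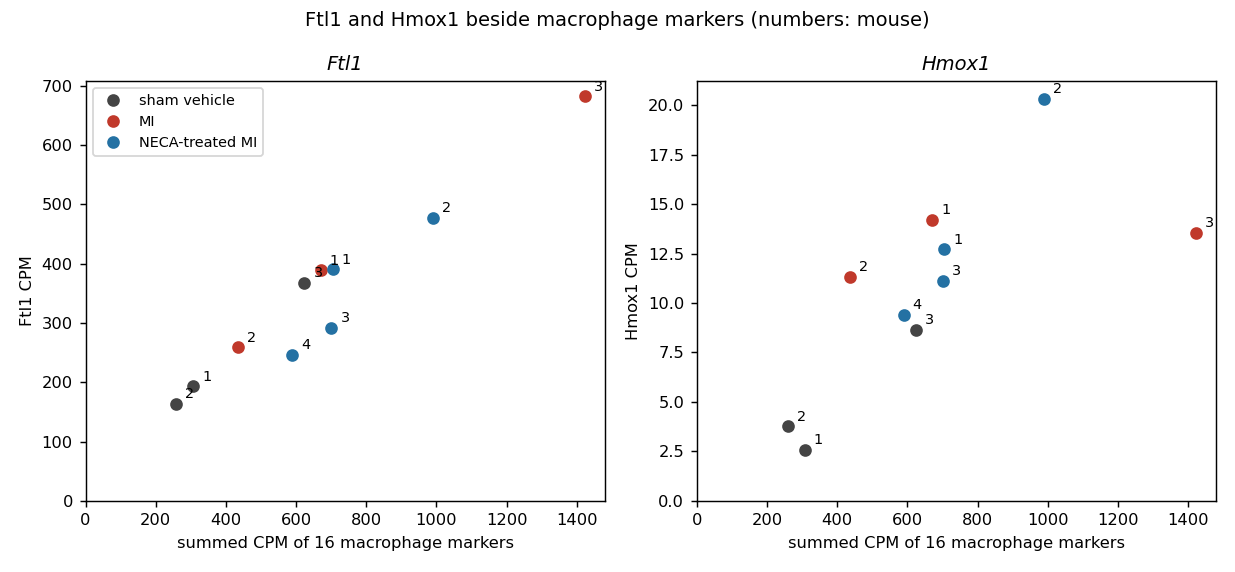
CPM of Ftl1 (left) and Hmox1 (right) against the summed CPM of 16 macrophage and monocyte markers, 1 point per mouse, numbered. Ftl1 ran from 164 CPM in the mouse with the lowest marker sum to 682 CPM in the one with the highest; for Hmox1 the mouse with the highest marker sum had 13.5 CPM and NECA-treated MI mouse 2 the most, 20.3 CPM.

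Slc40a1, the gene of the exporter ferroportin, was read at low depth, with 11 to 30 counts per library. It was 11.1, 13.5 and 13.4 CPM in sham vehicle mice, 14.2, 25.7 and 11.5 CPM in MI mice and 12.7, 24.4, 14.5 and 16.95 CPM in NECA-treated MI mice. In CPM the groups overlapped, MI mouse 2 and NECA-treated MI mouse 2 were the highest, and no test passed (log2 fold change 0.36 ± 0.36 in MI against sham vehicle mice, -0.10 without MI mouse 2). The authors' TPM (transcripts per 1e6 transcripts) was 3.01 to 3.84 in sham vehicle, 6.07 to 16.5 in MI and 4.79 to 22.1 in NECA-treated MI mice. In these libraries the sham vehicle mice lay below both infarcted groups, while the MI range lay within the NECA-treated MI range. The share of all genes set apart in this way in TPM was not computed. The 1st library of MI mouse 3 read 3.75 TPM, within the sham vehicle range. Limma on log2(TPM + 1) gave 1.39 in MI against sham vehicle mice (limma adjusted p = 0.484). Why CPM and TPM differed was not tested.

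Of 6 other storage and turnover genes, 5 were tested and 0 passed. Ncoa4, the receptor that carries ferritin to autophagy, had the smallest p in MI against sham vehicle mice (-0.25 ± 0.18), followed by the iron chaperone gene Pcbp1 (0.19 ± 0.15). Fbxl5, whose protein directs the breakdown of iron regulatory protein 2, had 0.32 ± 0.24 and the ubiquitin ligase gene Herc2 0.34 ± 0.18 in NECA-treated MI against MI mice, and Ncoa4 had -0.25 ± 0.17 and Herc2 0.25 ± 0.18 in NECA-treated MI against sham vehicle mice. Of 8 export and hepcidin control genes, 3 were tested and 0 passed, with Bmp6, a ligand that induces hepcidin in liver, at -0.38 ± 0.28 in MI against sham vehicle and -0.22 ± 0.27 in NECA-treated MI against MI mice, and at 23.0 CPM in NECA-treated MI mice and 33.3 CPM in sham vehicle mice (log2 fold change -0.60 ± 0.26, unadjusted p = 0.0306, edgeR adjusted p = 0.821). Hfe, of the haemochromatosis protein, and the ferroxidase gene Cp had -0.10 ± 0.20 in MI against sham vehicle and -0.08 ± 0.18 in NECA-treated MI against sham vehicle mice, in that order, and Hfe had 0.06 ± 0.19 in NECA-treated MI against MI mice.

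At the first step of haem synthesis Alas1 mRNA was lower in MI than in sham vehicle mice. Fech mRNA, of the last step, showed no passing change, and enzyme activity was not measured. Alas1 (ENSMUSG00000032786) encodes the housekeeping form of 5-aminolevulinate synthase, the rate-limiting enzyme outside red cells. It was 255, 231 and 222 CPM in sham vehicle mice, 156, 105 and 99.0 CPM in MI mice and 127, 133, 139 and 145 CPM in NECA-treated MI mice. All 7 infarcted mice lay below all 3 sham vehicle mice, and the NECA-treated MI mice lay within the range of the MI mice. Alas1 fell by 1.05 ± 0.19 on the log2 scale (SE, edgeR adjusted p = 0.036) in MI against sham vehicle mice. It had -0.86 ± 0.17 (edgeR adjusted p = 0.147) in NECA-treated MI against sham vehicle mice, which did not pass, and 0.19 ± 0.18 (edgeR adjusted p = 0.89) in NECA-treated MI against MI mice, with a 95% interval of -0.19 to 0.57.

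Per 1000 cardiomyocyte marker counts, Alas1 was 3.51, 3.19 and 3.55 in sham vehicle mice, 2.44, 1.67 and 2.09 in MI mice and 1.90 to 2.07 in NECA-treated MI mice, again without overlap between sham vehicle and infarcted mice. The 1st libraries of MI mice 2 and 3 gave 118 and 86.0 CPM. Without sham vehicle mouse 3 the fall in NECA-treated MI against sham vehicle mice passed (-0.98, edgeR adjusted p = 0.0307), as it did without MI mouse 3 (-0.86, edgeR adjusted p = 0.00926), a mouse of neither group. With sham vehicle mouse 3, MI mouse 3 and NECA-treated MI mouse 4 left out together, a choice made after seeing the data, both falls passed. Alas1 then had -0.99 in MI (edgeR adjusted p = 4.75e-05) and -1.03 in NECA-treated MI against sham vehicle mice (edgeR adjusted p = 6.31e-07). In NECA-treated MI against MI mice the sign changed (-0.04, edgeR adjusted p = 0.99). Why the adjusted p moved was not tested.

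Fech, which inserts iron into protoporphyrin in the final step, was 78.0, 99.98 and 116 CPM in sham vehicle mice, 84.4, 112 and 64.6 CPM in MI mice and 87.5, 104, 121 and 93.2 CPM in NECA-treated MI mice. The groups overlapped, and its log2 fold changes were -0.22 ± 0.21, 0.22 ± 0.20 and -0.00 ± 0.19 (SE) in MI against sham vehicle, NECA-treated MI against MI and NECA-treated MI against sham vehicle mice. Without MI mouse 3, which had the lowest Fech level, the first value was 0.0031 and the second -0.0074. Without MI mouse 2, the highest of its group, the first was -0.51 (edgeR adjusted p = 0.269) and the second 0.51 (edgeR adjusted p = 0.603).

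**Figure D3:**
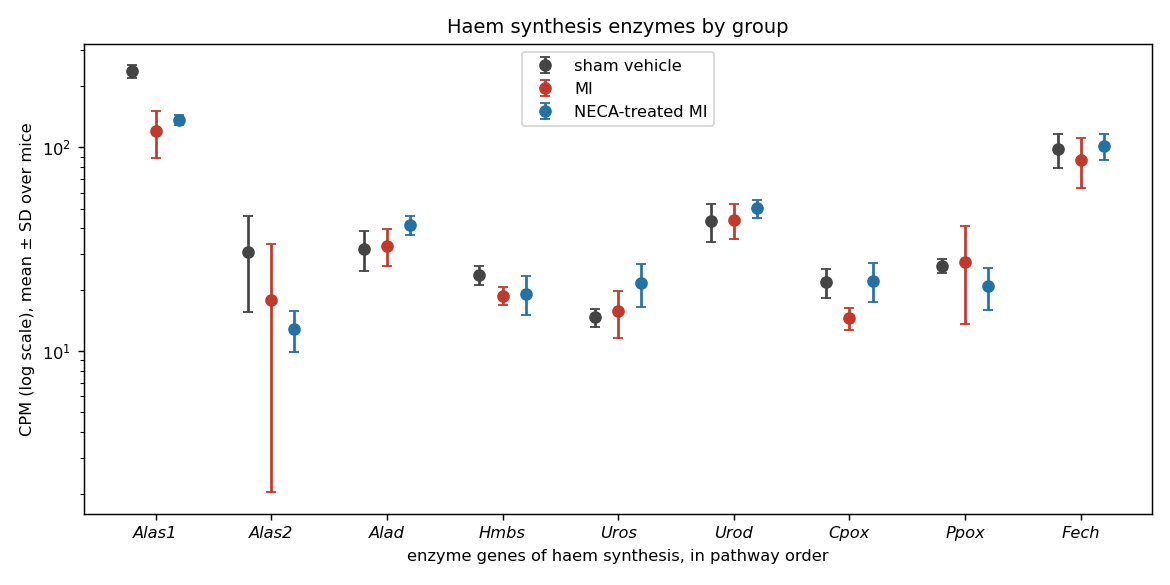
Mean CPM with SD over mice (log axis) of the haem synthesis enzyme genes in pathway order, with the red cell form Alas2 beside Alas1, in sham vehicle (grey), MI (red) and NECA-treated MI mice (blue). Alas1 was 236 CPM in sham vehicle mice against 120.1 and 136 CPM in the infarcted groups, while Fech was 97.8, 87.1 and 101 CPM and Urod 43.3, 44.2 and 50.2 CPM in the same order.

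All 13 other haem synthesis genes were tested and 0 passed in any comparison. Their median log2 fold change was -0.31 in MI against sham vehicle mice (11 of 13 negative), 0.20 in NECA-treated MI against MI mice and -0.03 in NECA-treated MI against sham vehicle mice, where the median of all genes was -0.01 in each. Cpox, which makes protoporphyrinogen, was 21.8 ± 3.58 CPM in sham vehicle, 14.5 ± 1.79 CPM in MI and 22.2 ± 4.83 CPM in NECA-treated MI mice (log2 fold change -0.67 ± 0.28 and 0.63 ± 0.27 for the first 2 comparisons, edgeR adjusted p = 0.368 and 0.793). The MI mice, at 12.4 to 15.6 CPM, lay below all others, at 17.1 CPM or more. Clpx, a mitochondrial protease subunit that acts on the synthase, had -0.31 ± 0.17 and 0.33 ± 0.16 in the same comparisons. Uros had 0.50 ± 0.28 and the erythroid form Alas2 -1.30 ± 0.51 in NECA-treated MI against sham vehicle mice. In that comparison 5 of 7 tested erythroid markers, Alas2 among them, had an unadjusted p under 0.05 as lower. Of all genes, 6.03% had such a p there in either direction.

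Hmox1 (ENSMUSG00000005413), haem oxygenase 1, which frees iron from haem and is induced by haem and oxidative stress, was read in few counts. It had 3, 5 and 11 counts in sham vehicle mice, 16, 11 and 13 in MI mice and 16, 25, 13 and 10 in NECA-treated MI mice, or 2.57 to 8.64, 11.3 to 14.2 and 9.42 to 20.3 CPM. All 7 infarcted mice lay above the 3 sham vehicle mice in the libraries compared, but the deep 1st library of MI mouse 2 gave 8.36 CPM, below the 8.64 CPM of sham vehicle mouse 3, and that of MI mouse 3 gave 21.3 CPM. The log2 fold change was 1.29 ± 0.42 (SE, edgeR adjusted p = 0.247) in MI and 1.36 ± 0.39 (edgeR adjusted p = 0.604) in NECA-treated MI against sham vehicle mice, and neither passed. Without sham vehicle mouse 3, the highest of its group, the values were 1.83 (edgeR adjusted p = 0.0957) and 1.89 (edgeR adjusted p = 0.191). With sham vehicle mouse 3, MI mouse 3 and NECA-treated MI mouse 4 left out together they were 1.87 (edgeR adjusted p = 0.0867) and 2.01 (edgeR adjusted p = 0.0132), and the second passed. Only 1 of the 3 sham vehicle mice reached the level of 8.57 CPM that the filter asked of at least a group's worth of libraries, so Hmox1 was tested because of its level in infarcted mice. It is the member with the sparsest counts, and its difference between the deep and shallow library of MI mouse 3 was 1.58-fold. The macrophage and fibroblast markers above also had positive median fold changes in both infarcted groups against sham vehicle mice, and their part was not tested.

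Of 9 other genes of haem breakdown and transport, 6 were tested and 0 passed. The biliverdin reductase genes Blvra and Blvrb had log2 fold changes of 0.60 ± 0.39 and -0.54 ± 0.41 in MI against sham vehicle mice. In NECA-treated MI against MI mice Blvra had -0.71 ± 0.37 and the lysosomal haem transporter gene Slc48a1 -0.33 ± 0.16. The constitutive haem oxygenase gene Hmox2 was 33.6 CPM in sham vehicle and 42.2 CPM in NECA-treated MI mice (0.27 ± 0.19), and the exporter gene Abcg2 had 0.22 ± 0.25 in that comparison.

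The iron sensors showed no passing change. Ireb2, iron regulatory protein 2, was 36.0, 31.6 and 39.3 CPM in sham vehicle mice, 37.3, 18.5 and 36.5 CPM in MI mice and 32.5 to 36.7 CPM in NECA-treated MI mice, with MI mouse 2 the lowest. Aco1, the cytosolic aconitase that becomes iron regulatory protein 1 when it loses its iron-sulfur cluster, was 29.2, 24.8 and 41.7 CPM, 32.9, 29.8 and 21.9 CPM, and 31.0 to 41.4 CPM in the same groups. The log2 fold changes in MI against sham vehicle mice were -0.29 ± 0.23 for Ireb2 and -0.23 ± 0.24 for Aco1. For Aco1 the value was 0.13 with sham vehicle mouse 3, MI mouse 3 and NECA-treated MI mouse 4 left out together. Both proteins are regulated mainly after translation, which these data do not measure.

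**Figure D4:**
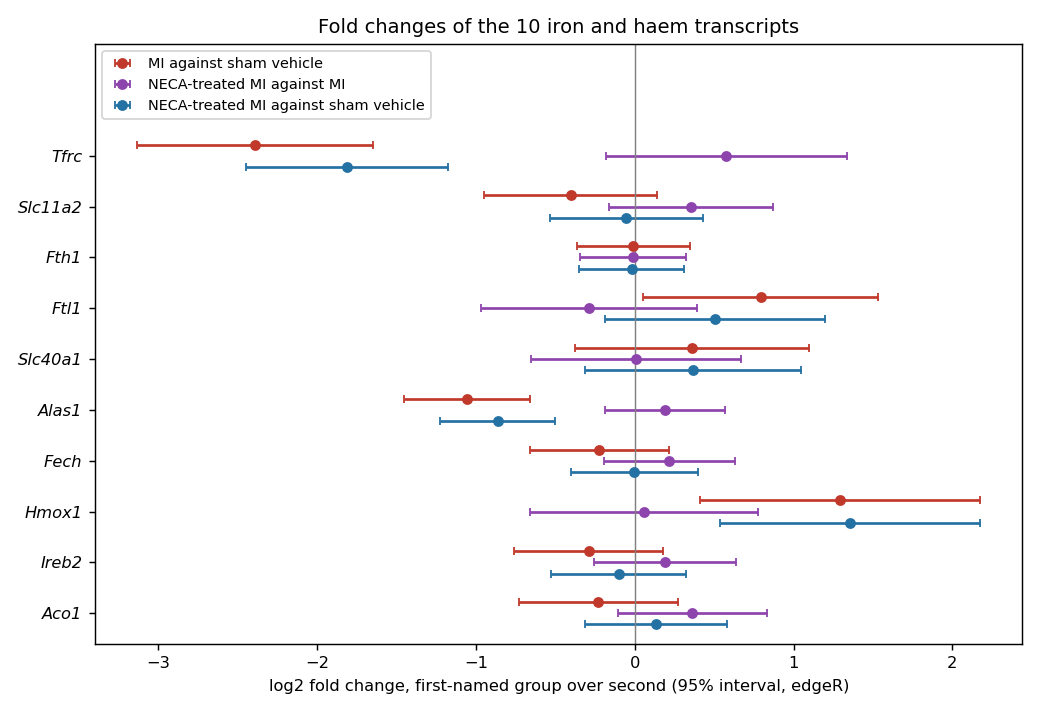
Log2 fold change of each member in the 3 comparisons with its 95% interval from edgeR's fit. For Tfrc and Alas1 the intervals of both infarcted groups against sham vehicle mice lay below 0 and for Hmox1 above 0, as for Ftl1 in MI mice; in NECA-treated MI against MI mice all 10 intervals held 0.

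In MI against sham vehicle mice 2 of the 10 members passed, Tfrc and Alas1, both lower. Of all 9505 genes tested, 0.0736% passed (7 genes), 0.0421% as higher and 0.0316% as lower. Because the members were proposed with these results known, that share is background only. In CPM the groups did not overlap for 3 members (Tfrc, Alas1 and Hmox1), where 13.5% of all genes showed this, 7.72% as higher and 5.75% as lower. At an unadjusted p under 0.05, 4 members and 12% of genes were found. In NECA-treated MI against sham vehicle mice 0 of 10 members passed by edgeR, with 3 at an unadjusted p under 0.05 (6.03% of all genes) and 2 past the threshold by DESeq2, and 0.0105% of all genes passed (1 gene, the beta tubulin gene Tubb4b). Again 3 members did not overlap, the same 3, where 7.94% of genes did not overlap, 5.12% as higher and 2.82% as lower. In NECA-treated MI against MI mice 0 of 10 members passed by edgeR, 0 by DESeq2 and 0 had an unadjusted p under 0.05, while 0% of all genes passed by edgeR and 6.07% (577 genes) had an unadjusted p under 0.05. In that comparison 0 members lay apart, against 7.36% of genes, 4.13% as higher and 3.23% as lower. For these 3 members, in the libraries compared, the 7 infarcted mice and the 3 sham vehicle mice did not overlap, which held for 3.34% of all tested genes, 2.16% as higher and 1.18% as lower. Hmox1 cannot be read against these shares, since it was tested through its level in infarcted mice and overlapped in the deep library of MI mouse 2. The comparisons against sham vehicle share the same 3 sham vehicle mice, so the side by side values of the infarcted groups are not independent.

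The passing calls rested on narrow margins. Over 20 alternative ways of processing, the Tfrc value in MI against sham vehicle mice ran from -2.66 to -1.84 and passed in 10, and the Alas1 value ran from -1.30 to -0.88 and passed in 8. The Tfrc call ended without sham vehicle mouse 2, MI mouse 2 or 3, or NECA-treated MI mouse 1, 2 or 4 (edgeR adjusted p from 0.0581 to 0.3), and that of Alas1 without sham vehicle mouse 1 or 2, either of MI mice 2 and 3, or each NECA-treated MI mouse in turn (edgeR adjusted p from 0.0612 to 0.241). With the 1st and 2nd libraries summed per mouse the values were -2.23 (edgeR adjusted p = 0.0554) and -1.07 (edgeR adjusted p = 0.057).

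**Figure D5:**
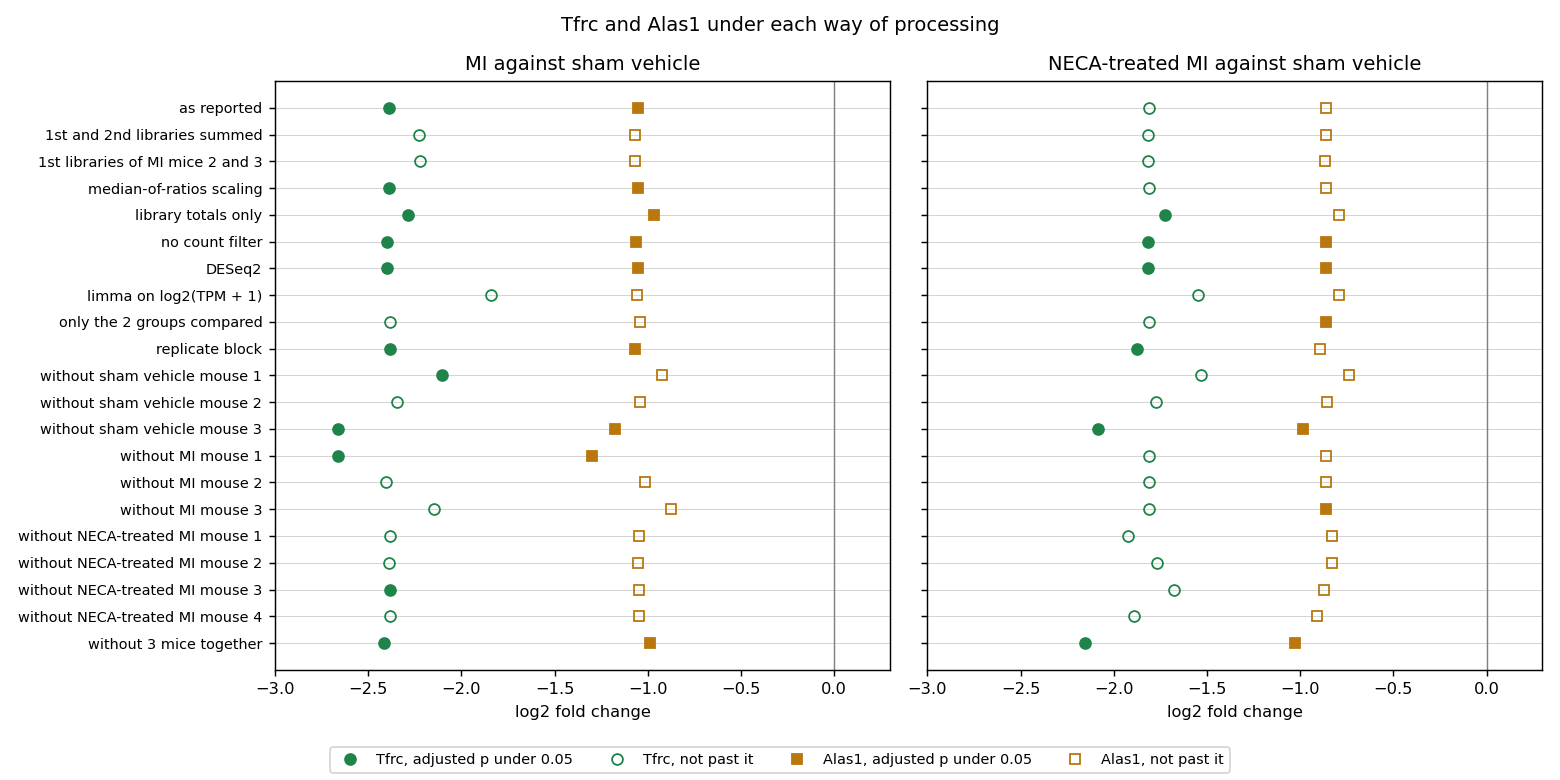
Log2 fold change of Tfrc (green circles) and Alas1 (orange squares) under each way of processing, in MI (left) and NECA-treated MI (right) against sham vehicle mice; filled symbols had an adjusted p under 0.05. Tfrc stayed between -2.66 and -1.84 and Alas1 between -1.30 and -0.88 on the left, while the filled symbols came and went.

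Genes of mitochondrial iron import and iron-sulfur cluster assembly, the other main use of iron in heart muscle, were described beside these. Of 22 such genes 20 were tested, 0 passed in any comparison, and 15 had a negative value in MI against sham vehicle mice (median -0.26). The mitochondrial transporter gene Abcb8 was 79.99 ± 17.8 CPM in sham vehicle, 53.3 ± 11.99 CPM in MI and 71.6 ± 3.55 CPM in NECA-treated MI mice (log2 fold change -0.64 ± 0.19 in MI against sham vehicle mice, unadjusted p = 0.00356, edgeR adjusted p = 0.247, and 0.43 ± 0.19 in NECA-treated MI against MI mice). Cisd2, an iron-sulfur protein of the endoplasmic reticulum and mitochondria, had -0.66 ± 0.21 in MI and -0.32 ± 0.19 in NECA-treated MI against sham vehicle mice. The mitochondrial iron importer gene Slc25a28 was 31.5 ± 7.68 CPM in MI and 18.05 ± 1.65 CPM in NECA-treated MI mice (-0.78 ± 0.24 with NECA against MI, edgeR adjusted p = 0.793), and Bola3, an assembly factor, had -0.47 ± 0.17 in NECA-treated MI against sham vehicle mice. Of 9 cardiomyocyte markers 0 passed and 7 had a negative value in MI against sham vehicle mice (median -0.13), and their part was not tested.

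Of 11 genes of haem proteins and their assembly 11 were tested and 0 passed. Cycs, cytochrome c, was 678 ± 77.4 CPM in sham vehicle, 511 ± 58.7 CPM in MI and 551 ± 45.9 CPM in NECA-treated MI mice (log2 fold change -0.50 ± 0.19 in MI against sham vehicle mice, edgeR adjusted p = 0.325). The reductase gene Cyb5r3 had 0.57 ± 0.18 in the same comparison, and the 2 genes had -0.38 ± 0.18 and 0.33 ± 0.17 in NECA-treated MI against sham vehicle mice. In NECA-treated MI against MI mice Cyb5a, cytochrome b5, had -0.54 ± 0.24 and the haem A synthesis gene Cox10 0.36 ± 0.19.

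Regulators of these genes did not pass either, with 12 of 12 tested and 0 called. Nr1d2, a haem-binding nuclear receptor of the clock, was 95.2 CPM in sham vehicle, 147 CPM in MI and 122 CPM in NECA-treated MI mice (log2 fold change 0.54 ± 0.18 in MI against sham vehicle mice, unadjusted p = 0.00779, edgeR adjusted p = 0.268). Zfp36l1, of a family of proteins that bind AU-rich mRNA and speed its decay, had 0.53 ± 0.18 in MI against sham vehicle and -0.43 ± 0.17 in NECA-treated MI against MI mice. Nfe2l2, the factor NRF2 that drives ferritin and Hmox1 transcription under oxidative stress, had -0.41 ± 0.18 in NECA-treated MI against MI mice, and Nrf1 had 0.49 ± 0.32 and Nr1d2 0.29 ± 0.17 in NECA-treated MI against sham vehicle mice. Of 10 other NRF2 target genes, 8 were tested and 0 passed, with G6pdx at -0.82 ± 0.47 and Prdx1 at 0.26 ± 0.15 in MI against sham vehicle, Txnrd1 at 0.36 ± 0.19 and Gclm at 0.44 ± 0.33 in NECA-treated MI against MI, and Me1 at -0.32 ± 0.21 and Gclc at -0.53 ± 0.41 in NECA-treated MI against sham vehicle mice.

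Promoter windows of 6 members were in the RefSeq table (Tfrc, Alas1, Fth1, Ftl1, Ireb2 and Aco1, build GRCm38.p6), and were searched on both strands because Tfrc and Alas1 were lower in the same mice. The letters ACGTG, the core bound by hypoxia-inducible factors, were found at the annotated start of Tfrc and in no other of these windows, and 19.6% of all promoter windows hold them. CACGTG, which contains ACGTG (7.15% of windows), and TGACNNNGC, the core of the NRF2 element (12.4%), gave no match in the 6. The windows are short, as for Fth1 at chr19:9980350-9980649 and chr19:9982396-9982695. Sequence outside them was not searched, so elements further away would be missed. The Tfrc match lies at chr16:32608883-32608910 on the plus strand, with the core in capitals.
Tfrc promoter: tcggtaggtgtACGTGcggaaggaagtg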

How the data were processed

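Total RNA of myocardial tissue was sequenced with a modified CEL-Seq2 protocol that reads transcript 3′ ends, per the labels' protocols. The authors used FastQC 0.11.9, STAR and RSEM on GRCm39, as the submitters' processing notes list. Annotation release, strandedness and handling of molecular identifiers: not given in the sources used here. Values deposited per gene are RSEM expected counts, whole numbers in the deposited table, and log2(TPM + 1), both made by the authors. Of 57054 gene rows, 56647 had a value in all 12 libraries, 306 only in the deep 1st libraries of MI mice 2 and 3, and 101 in all but those. Symbols came from a table of Ensembl gene names, with 52029 rows matched.

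The mouse was the replicate, and MI mice 2 and 3 entered with their 2nd library. Counts were filtered with filterByExpr, TMM scaled and compared with edgeR 4.0.16 in R 4.3.3 (robust quasi-likelihood, two-sided, 1 fit over 10 mice, Benjamini-Hochberg adjusted p under 0.05 over 9505 genes). CPM values use library totals, standard errors come from the fold change and its F value, and a count of 0 allows up to 3 counts. On simulated counts of 9505 genes the test recovered 35% of 2-fold and 85% of 4-fold changes in the first comparison (MI against sham vehicle), 44% and 89% in the second (NECA-treated MI against MI) and 47% and 87% in the third (NECA-treated MI against sham vehicle).

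All 10 members were named. Of the other lists, genes past the threshold or among the 2 of smallest p in a comparison were named. Members and lists were chosen with earlier results of these data known. Other libraries, scalings, filters, DESeq2 1.42.0, limma 3.58.1 on log2(TPM + 1), 2 groups alone, a replicate block and leaving out mice were alternatives, and leaving out 3 mice together was chosen after seeing the data.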

Additional observations from a re-analysis of the deposited data

How the results depend on the processing

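In the main analysis 7, 0 and 1 genes passed in MI against sham vehicle, NECA-treated MI against MI and NECA-treated MI against sham vehicle mice, and 2, 0 and 0 members. In that order the gene counts were 15, 1 and 0 with the 1st and 2nd libraries summed, 12, 1 and 0 with the 1st libraries alone, 191, 8 and 43 with no count filter, 17, 0 and 6 by DESeq2, and 110, 6 and 350 without sham vehicle mouse 3, MI mouse 3 and NECA-treated MI mouse 4 together, a choice made after seeing the data. Limma on log2(TPM + 1) gave 0 genes and 0 members in the first and last comparisons. With only the 2 groups compared, 0 genes and 0 members passed in MI and 7 genes and 1 member in NECA-treated MI against sham vehicle mice, and library totals alone gave 4 genes and 1 member in the latter. Members past the threshold were 0 in MI against sham vehicle mice with summed or 1st libraries and 3 with no count filter, and in NECA-treated MI against sham vehicle mice 2 with no count filter, 2 by DESeq2 and 4 without the 3 mice. Leaving out 1 mouse at a time gave 0 to 50, 0 to 2 and 0 to 7 genes in the 3 comparisons, and 0 to 2 members in each comparison against sham vehicle mice. Mice share only a number across groups (deviations of same-numbered mice correlated at -0.23 to 0.19), and a replicate block gave 4 genes and 1 member in NECA-treated MI against sham vehicle mice. The cause of these differences was not tested. Of the members' fold changes over all settings, 557 kept direction and call or, with no call, changed sign by less than 1 SD, 6 changed sign by more with no call, 22 lost and 15 gained a call, and 0 called values reversed. Hmox1 and Slc40a1, with 3 to 30 counts per library, are limited by depth.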

Other observations

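The genes whose levels ran most like Tfrc over the 10 mice, by Pearson correlation of log2 CPM among 8078 other genes with a mean of at least 10 CPM, were the beta tubulin gene Tubb4b (r = 0.971), Alas1 (0.957), the ankyrin gene Ank1 (0.957), the sterol synthesis gene Hmgcs1 (0.951) and Tbl3 (0.948). Mean levels in sham vehicle, MI and NECA-treated MI mice were 249, 122 and 129 CPM for Tubb4b and 39.5, 22.9 and 27.1 CPM for Hmgcs1. For Alas1 they were Ank1 (0.960), Tfrc (0.957), the alpha tubulin gene Tuba8 (0.957), the phosphodiesterase gene Pde4a (0.949) and Pigo (0.946), and for Fth1 they were Fez2 (0.948), Fbrsl1 (0.927), Rpl3l (0.925), Ift81 (0.912) and Ndufa2 (0.905). These values describe 10 mice in 3 groups, and a gene that differs between the groups as the member does scores high.

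Sham vehicle mouse 3 also stood apart in iron and haem carrier genes, named here after their values were seen. Hamp, the gene of the iron hormone hepcidin, was 14.9 CPM in that mouse and 0 CPM in the other 9 mice, in the libraries compared. The haptoglobin gene Hp was 119 CPM there against 0 and 0.752 CPM in sham vehicle mice 1 and 2, and up to 93.5 CPM in NECA-treated MI mouse 2. The transferrin gene Trf was 192 CPM against 24.0 and 23.3 CPM, and up to 108 CPM in MI mouse 1. That mouse also held the atrial and adipocyte markers given above, and their part was not tested.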
